A study of Mus musculus with 6 samples.

Results

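The 9 genes described here encode the Jun proteins (Jun, Junb, Jund), the Fos proteins (Fos, Fosb, Fosl1, Fosl2), the stress-induced factor Atf3 and the small Maf protein Maff. They were taken by their symbols in the platform annotation, out of 18193 genes with a probe set of a single symbol. Each was represented by the probe set with the highest mean intensity over the 6 arrays. Of the 9 genes, 8 were bright enough to be tested among 12734 genes, and Fosb was not.

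Expression had been measured on 6 Affymetrix arrays of mouse kidney, 1 for each combination of clamp time (0, 45 or 60 min) and day of collection (day 1 or day 3). The pedicle of 1 kidney, which carries its vessels, was clamped and released, so that blood flow stopped and returned (ischemia-reperfusion). A clamp time of 0 min stands for no clamping, the 45 and 60 min kidneys are called clamped below, and all animals were male FVB/N mice aged 6 to 8 weeks and weighing 22 to 26 g. No genetic change or drug other than pentobarbital anesthesia is named in the labels, the state of the other kidney is not described, and the labels leave unsaid how many animals gave RNA to an array.

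AP-1 is a family of dimers that hold together by a leucine zipper and bind DNA with the adjoining basic region. Jun proteins pair with each other or with Fos proteins, while Fos proteins need a Jun partner. Most of these genes are immediate early genes, transcribed within minutes of a stimulus, and the kinase JNK then activates Jun by phosphorylation. Jund differs from its relatives in being made steadily in unstimulated cells. Fosl1 and Fosl2 encode the proteins Fra-1 and Fra-2, which lack the strong activation domain of Fos. Atf3 is a stress-induced factor that can repress its targets as a homodimer. Maff has no activation domain and pairs with the Nrf and Bach factors as well as with Fos proteins. In the kidney, Fos, Jun and Atf3 are known to be induced by ischemia-reperfusion.

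Promoter windows from RefSeq (build GRCm38.p6, the C57BL/6J reference and not FVB/N) were found for 8 of the 9 genes, as 10 windows of 300 bases. Each runs from 250 bases before the annotated start to 50 after it, and positions are counted from 1 at the first transcribed base, with no 0. The windows of 4 genes whose values follow are printed with every match of the motifs searched in capitals. The motifs were read on both strands. They were TGANTCA (the classical AP-1 site), TGACGTCA (the cyclic AMP response element, or CRE), the CArG box of serum response factor, and, added after the windows had been read, TGANNTCA and the shorter CRE core TGACGT. The last 2 overlap with the CRE. The Jun window lies at chr4:95052173-95052472 (minus strand), the Fos window at chr12:85473640-85473939 (plus strand), the Atf3 window at chr1:191183284-191183583 (minus strand) and the middle of 3 Maff windows at chr15:79347270-79347569 (plus strand).
Jun: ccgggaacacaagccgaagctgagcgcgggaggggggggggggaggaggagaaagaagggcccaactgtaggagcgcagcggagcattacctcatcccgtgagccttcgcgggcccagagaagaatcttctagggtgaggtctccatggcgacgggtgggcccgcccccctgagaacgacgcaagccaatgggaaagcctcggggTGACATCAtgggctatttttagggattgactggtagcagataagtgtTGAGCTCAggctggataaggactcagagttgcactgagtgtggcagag
Fos: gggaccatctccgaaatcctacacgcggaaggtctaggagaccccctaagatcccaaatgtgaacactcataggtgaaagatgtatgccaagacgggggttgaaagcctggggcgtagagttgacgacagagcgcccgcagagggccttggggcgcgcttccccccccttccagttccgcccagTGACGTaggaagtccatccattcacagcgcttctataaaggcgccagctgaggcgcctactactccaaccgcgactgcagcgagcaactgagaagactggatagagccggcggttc
Atf3: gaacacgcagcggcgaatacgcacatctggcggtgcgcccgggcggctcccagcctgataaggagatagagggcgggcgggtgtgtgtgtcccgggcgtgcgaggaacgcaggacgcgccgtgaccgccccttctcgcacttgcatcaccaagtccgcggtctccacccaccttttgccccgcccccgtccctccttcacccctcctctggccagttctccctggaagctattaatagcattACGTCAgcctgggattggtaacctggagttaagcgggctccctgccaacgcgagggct
Maff: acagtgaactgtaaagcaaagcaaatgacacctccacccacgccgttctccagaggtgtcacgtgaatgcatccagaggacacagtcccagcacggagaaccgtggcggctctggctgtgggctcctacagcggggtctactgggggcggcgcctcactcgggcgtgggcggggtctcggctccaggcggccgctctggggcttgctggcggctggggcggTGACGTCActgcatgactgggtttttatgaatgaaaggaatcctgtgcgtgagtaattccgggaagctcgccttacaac
The full CRE stood in this Maff window at position -29 and in 1.79% of all 32851 windows. Jun held TGANNTCA at positions -45 and 3, a pattern found in 14.1% of windows, and Jund and another Maff window held it too. The core TGACGT stood at -66 in Fos, at -8 in Atf3 on the opposite strand, and within the CRE of Maff on both strands, at -29 and -27. It was in 7.51% of all windows. TGANTCA and the CArG box, present in 7.81% and 1.63% of all windows, had 0 matches in the 10 windows. Sites farther than 250 bases before a start lie outside the windows and were not searched, so these promoters may hold either motif there.

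Levels are given as linear intensities of single arrays, and differences are of log2(intensity + 16), which makes the change of dim genes smaller than their ratio of intensities. A single array was called higher or lower than another at 2-fold, a log2 difference of 1, with no p-value. Probe sets differ in how brightly they read, so levels were compared between arrays and not between genes. The arrays had been scaled to a common mean. Their medians ran from 81.4 to 95.3, and between 18.4% and 20.6% of probe sets lay below 16. On the log2 scale the median of the 0 min day 3 array lay at -0.12 from the mean of the 6 medians, and the others lay between -0.03 and 0.07. The ratio of 3' to 5' beta-actin probe sets, a sign of RNA quality, was 0.49 (log2) on the 60 min day 3 array, 0.77 on the 0 min day 3 array and 1.03 to 1.12 on the other 4. Of 10 kidney transcripts listed as a tissue check, 9 were found on the array and all 9 were above the filter. They ran from Nphs1 (nephrin of podocytes, 136 to 203) to Kap (an androgen-regulated proximal tubule transcript, 38470 to 56882).

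After a 60 min clamp all 9 genes read higher than in the 0 min kidney of the same day, and 7 were at least 2-fold higher on each day. Of the 8 tested genes, 7 were at least 2-fold higher at day 3 and 6 at day 1. In RNA of whole kidney, a change in the number of cells of a type and a change of RNA per cell cannot be told apart. Over all genes tested, 7.58% were that much higher at day 3 (2.32% lower) and 4.39% at day 1 (1.71% lower). Jun, Fos, Fosl1, Atf3 and Maff, 5 of the 9, were so on both days, as were 3.04% of all genes. After 45 min, 3 of 9 were at least 2-fold higher at day 3 (Fos, Atf3 and Maff), against 1.50% of all genes. At day 1, 0 of 9 were, against 3.57%. For 7 of the 9 genes the intensity stepped up from 0 to 45 to 60 min on both days. This held for 6 of the 8 tested genes, against 9.57% of all genes tested. Fosb, the gene not tested, rested there on readings below 16 at 0 and 45 min. The exceptions were Jun and Fosl1, which were lower at 45 than at 0 min on day 1.

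Jun, on chromosome 4 (95049036 to 95052222, GRCm38.p6, as are all gene positions below), encodes the c-Jun protein. Its intensity was 842, 1110 and 2294 at 0, 45 and 60 min on day 3, and 724, 670 and 1568 on day 1. Both 60 min kidneys thus stood above the other 4, while the 45 min day 1 kidney was the lowest of all. The 60 min kidney was 2.72 times the 0 min kidney at day 3 and 2.17 times at day 1. A second Jun probe set read 468, 682 and 1323 on day 3 and 469, 578 and 1106 on day 1, so there the 45 min kidney lay above the 0 min kidney on both days.

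Junb, on chromosome 8 (84976909 to 84978748), encodes a Jun protein that is a weaker activator than c-Jun on single AP-1 sites. It read 244, 429 and 651 at 0, 45 and 60 min on day 3, and 222, 345 and 441 on day 1. The 4 clamped kidneys lay above both 0 min kidneys. Its largest single difference was 1.36 (log2), between 60 and 0 min at day 3.

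Jund, on the same chromosome (70697739 to 70700616), read 2231, 2812 and 3281 at 0, 45 and 60 min on day 3, and 2915, 3922 and 6020 on day 1. Its highest array was the 60 min kidney of day 1, and the 45 min day 3 kidney was lower than the 0 min day 1 kidney. The 60 over 0 min difference was 0.55 at day 3 and 1.04 at day 1. A second, dim Jund probe set (30.4 to 44.0) had differences of 0.37 and 0.17.

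Fos, on chromosome 12 (85473890 to 85477274), encodes c-Fos, the prototype of the immediate early proteins. It read 193, 456 and 844 at 0, 45 and 60 min on day 3, and 147, 300 and 417 on day 1. All 4 clamped kidneys were above both 0 min kidneys, and the 45 min kidney of day 3 was above the 60 min kidney of day 1. The 60 min kidney was 4.38 times the 0 min kidney at day 3 and 2.83 times at day 1.

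Fosb, on chromosome 7 (19302696 to 19310118), encodes a close relative of c-Fos. It read 2.95, 3.33 and 14.3 at 0, 45 and 60 min on day 3, and 4.71, 5.08 and 35.4 on day 1. Only the 60 min day 1 array exceeded the added 16, and the other 5 readings lay at the dim end of the arrays. At day 1 its log2 difference was 1.31 for 60 over 0 min and 1.29 for 60 over 45 min, each against a reading below 16, so the counts of 2-fold higher genes that include Fosb rest on dim readings there. In a fit of all 18193 genes with no filter, clamped minus 0 min was 0.51 ± 0.20 (SE, limma adjusted p = 0.476).

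Fosl1, on chromosome 19 (5447698 to 5455938), read 30.0, 68.0 and 258 at 0, 45 and 60 min on day 3, and 57.3, 42.0 and 171 on day 1. The 60 min kidneys stood apart from all others, and the 0 min kidney of day 1 was higher than the 45 min kidney of that day. The 60 min kidney was 3.79 times the 45 min kidney at day 3 and 4.07 times at day 1. A second Fosl1 probe set was dim (4.14 to 48.6) and did not separate the clamp times in that way, with 47.2 at 60 min and 48.6 at 45 min on day 3.

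Fosl2, on chromosome 5 (32136472 to 32157840), read 374, 745 and 1406 at 0, 45 and 60 min on day 3, and 448, 509 and 890 on day 1. The 60 min kidneys were the 2 highest, and the 45 min kidneys were next. The second Fosl2 probe set read 68.9, 64.4 and 99.1 on day 3 and 100.2, 108 and 93.2 on day 1. It placed the 60 min kidney of day 1 below the 0 min kidney, so the 2 probe sets disagreed for this gene, and the values of Fosl2 hold for the brighter one.

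Atf3, on chromosome 1 (191170296 to 191183333), encodes a factor that cells under stress make in large amounts. It read 130, 309 and 783 at 0, 45 and 60 min on day 3, and 104, 173 and 431 on day 1. Each clamped kidney was above both 0 min kidneys, and both 60 min kidneys were above both 45 min kidneys. The 60 min kidney was 6.03 times the 0 min kidney at day 3 and 4.16 times at day 1.

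Maff, on chromosome 15 (79346621 to 79359078), read 39.1, 284 and 296 at 0, 45 and 60 min on day 3, and 137, 146 and 341 on day 1. At day 3 both clamp times gave nearly the same reading, 7.27 and 7.59 times the 0 min kidney. At day 1 the 45 min kidney lay close to the 0 min kidney, and the 60 min kidney was 2.49 times as bright. The 0 min kidneys themselves differed, with day 3 lower than day 1 by a log2 difference of -1.47, lower than for all but 0.51% of genes.

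**Figure D1:**
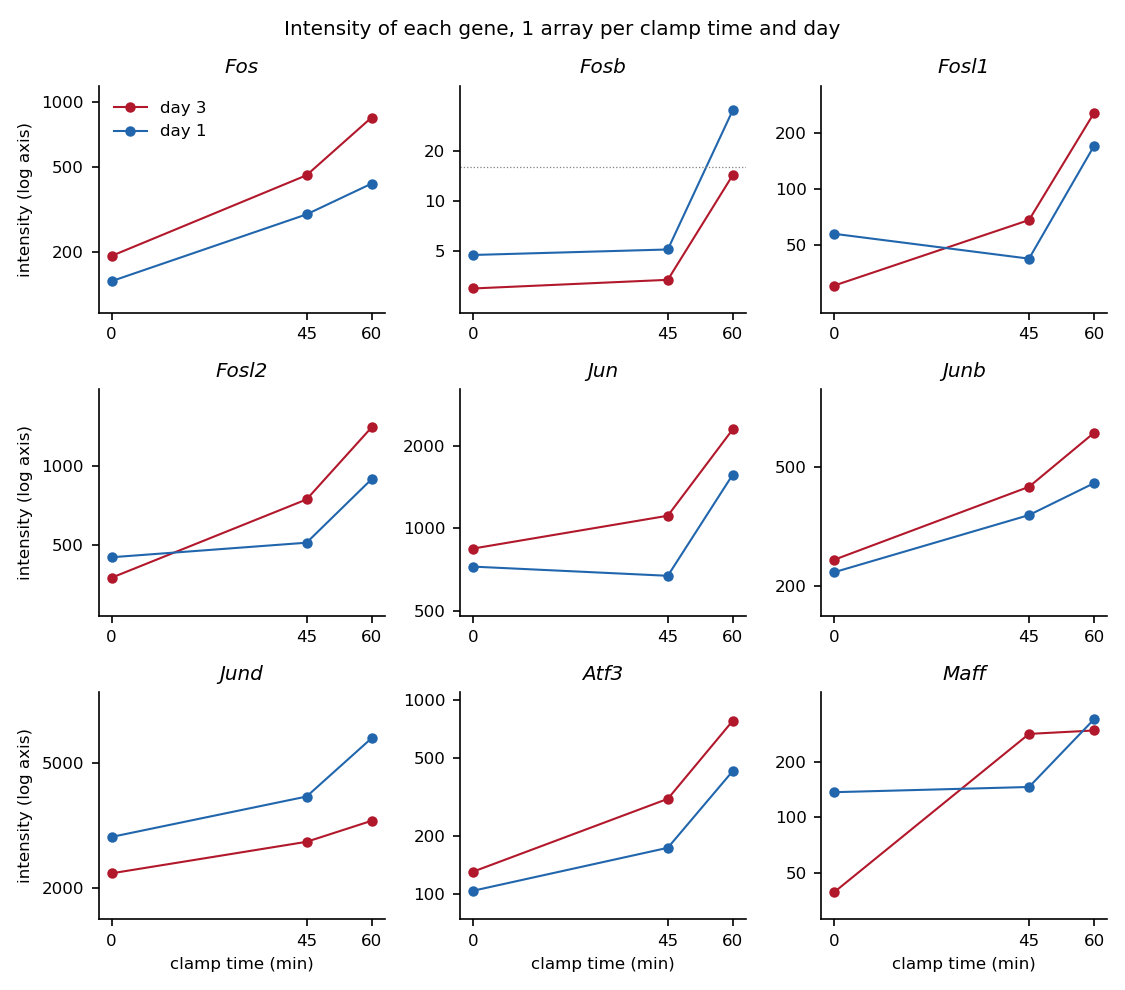
Intensity (log axis, 1 point per array) of each gene against clamp time in min, day 3 in red and day 1 in blue, with lines joining the arrays of a day and a dotted line at an intensity of 16. The 60 min kidneys are the highest of their day for all 9 genes, and Jund is the bright gene that reads higher on day 1 than on day 3 at each clamp time.

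The first fitted comparison asks how clamped kidneys (45 and 60 min) differed from 0 min kidneys over both days. Of the 9 genes, 5 had all 4 clamped kidneys above both 0 min kidneys: Fos, Fosl2, Junb, Atf3 and Maff. This was so for 10.9% of all genes tested. The reverse, all 4 below, held for 0 of the 9 and for 8.94% of genes. Maff was higher by 1.57 ± 0.47, Atf3 by 1.54 ± 0.17 and Fos by 1.40 ± 0.17 (log2 difference ± SE of limma over 6 arrays). Fosl1 was higher by 1.11 ± 0.30, Fosl2 by 0.99 ± 0.23, Junb by 0.92 ± 0.15, Jun by 0.70 ± 0.16 and Jund by 0.59 ± 0.16. For comparison, the middle 95% of all genes lay between -0.58 and 1.04 with a median of 0.01, and Atf3 ranked 95th and Maff 88th from the top.

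None of these differences passed limma's test after Benjamini-Hochberg adjustment over all genes, with adjusted p from 0.131 for Atf3 to 0.269 for Maff. Limma called 0 of 12734 genes (0%), and 1858 (14.6%) had an unadjusted p under 0.05, among them all 8 tested genes of this group. With 1 array per clamp time and day, the spread is the residual of an additive fit of clamp time and day with 2 degrees of freedom. Under a robust variance trend Atf3 (adjusted p = 0.0326) and Fos (adjusted p = 0.0373) were called by limma, with 75 genes in all. Over all settings tried, the limma adjusted p ran up to 0.546 for both. Leaving out the 0 min kidney of day 3 gave 0.66 for Maff and 0.51 for Fosl1. Leaving out that of day 1 gave 2.48 for Maff and 1.72 for Fosl1.

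The second fitted comparison asks what 60 min added to 45 min. In 7 of 9 genes (6 of the 8 tested) both 60 min kidneys were above both 45 min kidneys, as in 25.5% of genes tested. The exceptions were Fos and Jund. Junb met this narrowly, with 441 at 60 min on day 1 against 429 at 45 min on day 3. Maff did so with 296 against 284 on day 3. With quantile normalization of the arrays the count was 5 of 9. At day 3, 3 of 9 were at least 2-fold higher (Jun, Fosl1 and Atf3; 5.96% of all genes, with 2.40% lower). At day 1, 5 of 9 were (4 of the 8 tested), the same 3 with Fosb and Maff (1.02% of all genes, with 0.982% lower). In the fit, Fosl1 was higher by 1.70 ± 0.34, 17th from the top of 12734 genes, followed by Atf3 (1.27 ± 0.20) and Jun (1.12 ± 0.18). Fosl1 passed the filter (6.008) only through its 60 min arrays, with log2 values of 8.095 at day 3 and 7.546 at day 1. At 0 and 45 min it read 5.525 and 6.392 at day 3, and 6.195 and 5.858 at day 1, with a mean below the filter. Its place among the tested genes and its rank thus rest on the 60 min readings. Fosl2 (0.84 ± 0.26), Fos (0.66 ± 0.20), Maff (0.60 ± 0.55), Junb (0.46 ± 0.17) and Jund (0.42 ± 0.18) were nearer the bulk, whose middle 95% ran from -0.70 to 0.90. Limma called 0 of 12734 genes (0%), while 1661 (13.0%) had an unadjusted p under 0.05, 7.76% higher and 5.29% lower. Of the 8 genes of this group, 6 did, all higher. Adjusted p was 0.306 for Fosl1, Jun and Atf3 and up to 0.649 for Maff. Without the 45 min day 1 array the value of Maff was -0.26 ± 0.45.

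**Figure D2:**
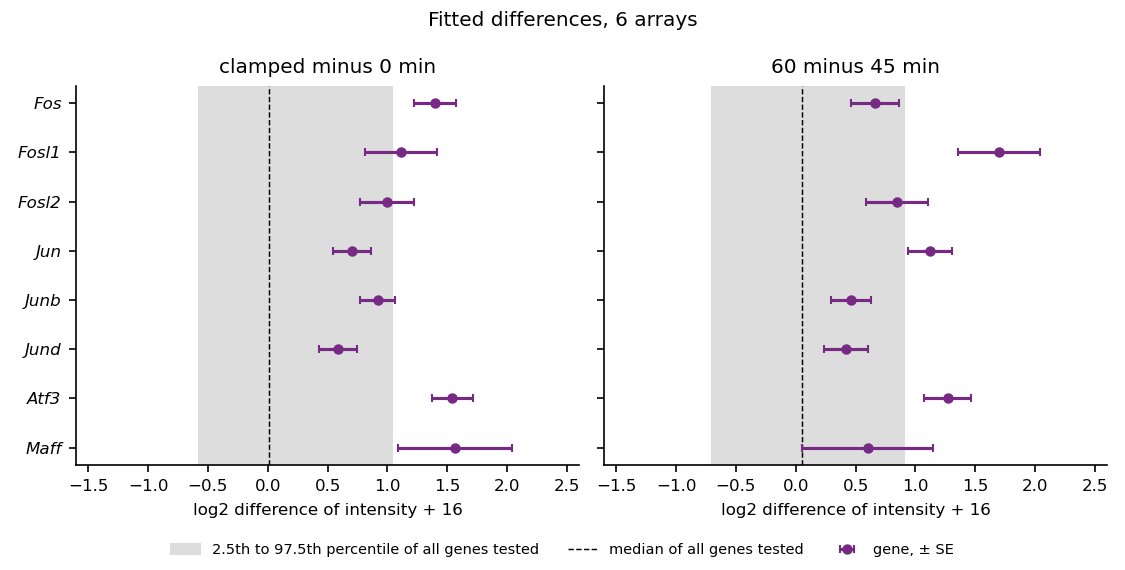
Log2 difference of intensity + 16 for the 8 tested genes, clamped minus 0 min (left) and 60 minus 45 min (right), with points ± SE from limma over 6 arrays. The grey band holds the middle 95% of all 12734 genes; Fos, Fosl1, Atf3 and Maff lie beyond it on the left, and Fosl1, Jun and Atf3 on the right.

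Between days the group divided. In clamped kidneys Fos, Fosl1, Fosl2, Jun, Junb and Atf3 were higher at day 3 than at day 1 at both clamp times. For these 6 the differences at 60 min ran from 0.54 (Jun and Junb) to 0.99 (Fos), and at 45 min from 0.30 (Junb) to 0.79 (Atf3). Maff was higher at day 3 at 45 min (0.89, the highest of the 9 there) and lower at 60 min (-0.19). Jund and Fosb were lower at day 3 than at day 1 at every clamp time, by -0.38, -0.48 and -0.87 for Jund at 0, 45 and 60 min. The second, dim Jund probe set gave -0.07, -0.02 and 0.14, and the Fosb readings at 0 and 45 min all lay below 16. At 60 min, 0 of 9 genes were at least 2-fold higher or lower between days, against 3.01% of genes higher and 1.09% lower. At 45 min the count was again 0, against 1.19% higher and 2.06% lower. At 0 min Maff alone was 2-fold lower, against 1.40% of genes lower and 1.71% higher.

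Both clamped day 3 kidneys were above both clamped day 1 kidneys for Fos alone among the 9, as for 13.2% of genes tested. Both were below for Jund alone, as for 19.6%. The fitted difference of clamped kidneys, day 3 minus day 1, was 0.78 ± 0.36 for Fos, 0.81 ± 0.60 for Atf3 and -0.68 ± 0.27 for Jund, each with a limma adjusted p = 0.997. With single arrays left out, it ran from 0.35 (without the 60 min day 3 array) to 1.22 (without the 45 min day 3 array) for Fos, and from 0.16 to 1.46 for Atf3 without the same arrays. For Jund it ran from -0.98 without the 45 min day 1 array to -0.37 without the 60 min day 1 array. In this fit the 45 and 60 min kidneys of a day shared a mean, so their difference counted as spread. Limma called 0 of 12734 genes (0%) here, and 522 (4.10%) had an unadjusted p under 0.05, 1.75% higher and 2.35% lower, with 0 of the 8 among them. The clamped minus 0 min difference of day 3 less that of day 1 was largest for Maff (1.82 ± 0.70, limma adjusted p = 1), where the 0 min reading of day 3 was so low. It was called for 0 genes (0%), with 282 (2.21%) at an unadjusted p under 0.05, 1.18% higher and 1.04% lower. Maff alone of the 8 was among these.

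**Figure D3:**
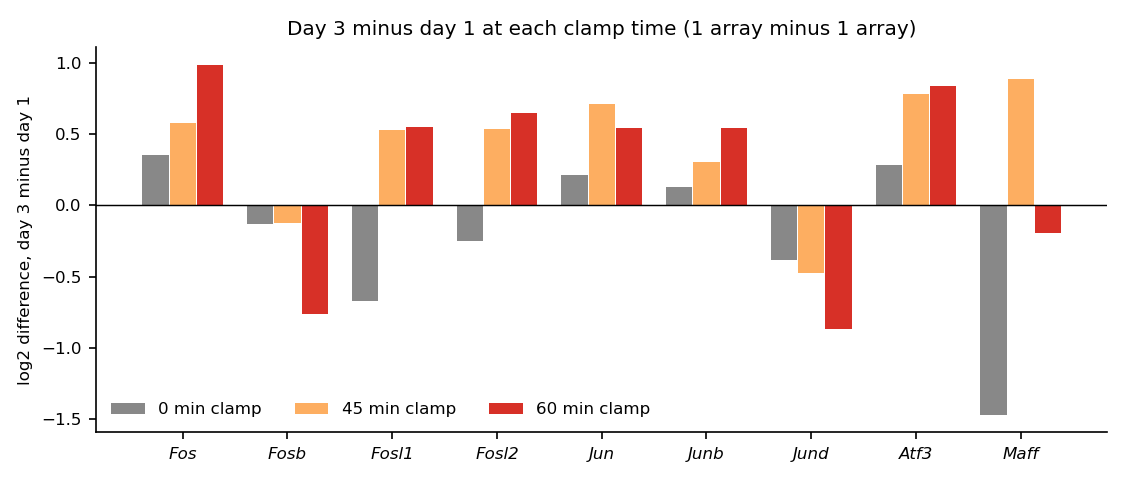
Log2 difference of intensity + 16, day 3 minus day 1, for each gene at 0, 45 and 60 min, each bar being 1 array minus 1 array. Jund and Fosb lie below 0 at every clamp time, and Fos reaches 0.99 at 60 min, while Maff at 0 min lies at -1.47.

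Likeness of pattern was measured by Pearson's r of log2(intensity + 16) over the 6 arrays, as a description without a test. All 8 profiles share these arrays, and a gene that is high in the 60 min day 3 kidney tends to correlate with any other that is. Fos and Junb had the most similar profiles of the group (r = 0.996), and Fosl2 and Atf3 followed Fos at 0.943 and 0.970. Jund was the least like the rest, with r from 0.34 (Jun) to 0.657 (Maff). Among 2650 other genes that ranged over at least 1 log2 unit, the chemokine genes Cxcl10 and Ccl12 were nearest to Fos (r = 0.994 for both), followed by Ada (adenosine deaminase). Cxcl10 was also nearest to Junb (r = 0.996), followed by the kinase gene Stk17b and by Ccl12 (0.993 for both). Ccn1 (a matricellular protein), Ttll7 and Cenpm were nearest to Fosl1. Relb (an NF-kB subunit), Samd4 and Stambpl1 were nearest to Fosl2, and Ifrd1, Plaur (the urokinase receptor) and the protease gene Adamts1 to Jun. Atf3 was closest to Pdgfb (a growth factor), Aoc1 (diamine oxidase) and Snx10, and Maff to Lrrc8e, Nrg1 (neuregulin) and Zfp652. Jund was closest to Fgb (fibrinogen beta chain, r = 0.968), Vwa5a and the keratin gene Krt8, and all 3 had their highest reading in the 60 min day 1 kidney.

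Other genes of the pathway were read from lists chosen with earlier results of these data known. Limma called 0 genes of any list at an adjusted p under 0.05 in clamped minus 0 min, so what follows gives sizes. Over all genes tested 9.56% had an unadjusted p under 0.05 and were higher, and 5.03% lower, and the median gene differed by 0.01.

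Of 32 textbook AP-1 target genes, 24 were bright enough to test. Their median difference was 0.70, and 13 were higher and 1 lower (Vegfa, -0.68 ± 0.16) at an unadjusted p under 0.05. Timp1, an inhibitor of matrix proteases, was higher by 2.09 ± 0.27, the hyaluronan receptor gene Cd44 by 1.80 ± 0.27, the matrix protein gene Tnc by 1.65 ± 0.14 and the monocyte chemokine gene Ccl2 by 1.45 ± 0.44. Timp1 read 281, 573 and 1339 at 0, 45 and 60 min on day 3, and 159, 785 and 1368 on day 1. Its readings after 60 min were alike on both days, whereas those of Fos and Atf3 were higher at day 3. Ccnd1 (cyclin D1), also on the list, was lower in all 4 clamped kidneys than in both 0 min kidneys (-0.25 ± 0.14).

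Among 14 tested genes of 15 that restrain MAP kinases or hasten decay of Fos mRNA, the median was 0.42, with 5 higher and 0 lower at an unadjusted p under 0.05. The phosphatase genes Dusp5 (1.06 ± 0.31), Dusp8 (1.06 ± 0.28), Dusp10 (0.91 ± 0.18) and Dusp14 (0.67 ± 0.14) had the largest differences. Dusp10, whose product acts on JNK and p38, read 33.0, 54.6 and 152 at 0, 45 and 60 min on day 3, and 31.7, 39.5 and 88.0 on day 1. This is the same order of the 6 kidneys as for Atf3, except that the 0 min kidneys of both days were close to each other.

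Transcripts of the kinases that act above AP-1 differed little, and kinase activity was not measured. The 14 tested of 19 had a median of -0.02, with 2 higher and 0 lower at an unadjusted p under 0.05. These were Map3k8 (Tpl2, 0.67 ± 0.19) and Map3k1 (MEKK1, 0.58 ± 0.16), both upstream kinases of the cascade. The p38 genes Mapk11 and Mapk14 differed by 0.45 ± 0.27 and -0.24 ± 0.17. Serum response factor (Srf) and 5 of its cofactors, which act at the Fos promoter or at other CArG boxes, were all tested, with a median of 0.20 and 0 at an unadjusted p under 0.05 in either direction. Elk3, known as a repressor of Fos transcription, had the largest difference (0.51 ± 0.22), followed by Mrtfb (0.21 ± 0.13), Mrtfa (0.20 ± 0.14) and Elk4 (0.19 ± 0.14).

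Other basic leucine zipper factors were uneven. Of 12 ATF, CREB and C/EBP genes, 10 were tested, with a median of 0.23, and 2 were higher at an unadjusted p under 0.05. These were Cebpd (1.10 ± 0.22) and Cebpb (0.76 ± 0.24), C/EBP factors of the acute phase response. Crem differed by 0.38 ± 0.20 and Atf5 by 0.32 ± 0.13. Of 6 other AP-1 partners, 4 were tested, with 0 at an unadjusted p under 0.05: Jdp2 (0.31 ± 0.14), Atf7 (0.23 ± 0.21), Batf3 (0.16 ± 0.78) and Atf2 (-0.08 ± 0.13). Of 9 Maf, Nrf and Bach genes beside Maff, 8 were tested with a median of 0.10 and 0 at an unadjusted p under 0.05. Among them Mafk, another small Maf gene, differed by 0.33 ± 0.14, Nfe2l3 by 0.28 ± 0.32, Bach2 by 0.23 ± 0.21 and Nfe2l2, the gene of NRF2, by 0.11 ± 0.18.

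**Figure D4:**
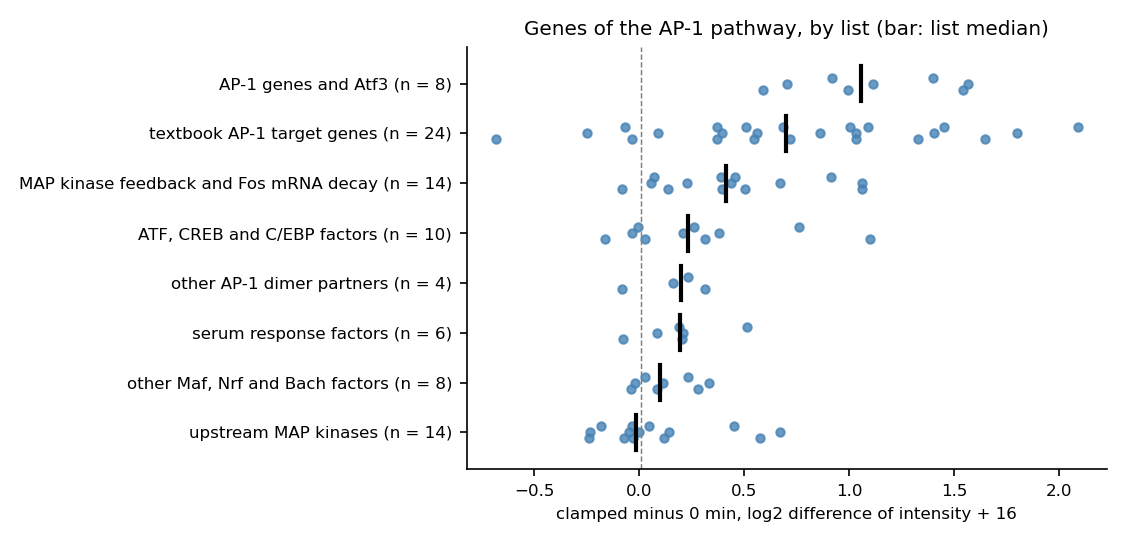
Clamped minus 0 min (log2 difference of intensity + 16, limma over 6 arrays) for each tested gene of 8 lists, with 1 point per gene, a black bar at the list median and a dashed line at the median of all genes. The medians run from 1.05 for the AP-1 genes and Atf3 and 0.70 for their textbook targets to -0.02 for upstream MAP kinases.

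Markers of other cell types were read on the same arrays. All 10 macrophage markers were on the array and above the filter, and 6 were higher in clamped than in 0 min kidneys at an unadjusted p under 0.05. Their summed intensity was 9612, 13973 and 34610 at 0, 45 and 60 min on day 3, and 5480, 9138 and 9276 on day 1. This sum and those below weigh the brightest genes most, and Lyz2 alone read 17100 in the 60 min day 3 kidney. The part of macrophages in the AP-1 readings was not tested.

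Of 6 injured tubule markers, 5 were tested, and all 5 were higher at an unadjusted p under 0.05. Their sum was 7909, 19554 and 44125 at 0, 45 and 60 min on day 3, and 9604, 23631 and 49692 on day 1. Fibroblast markers (6 of 6 tested, 4 higher) summed to 14938, 23601 and 40059 on day 3 and to 9617, 24918 and 24246 on day 1. The part of either list in the AP-1 readings was not tested.

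The kidney transcripts of the tissue check went the other way: 7 of the 9 were lower in both 60 min kidneys than in both 45 min kidneys. This was so for 18.8% of all genes tested. Their sum was 168230, 172420 and 117340 at 0, 45 and 60 min on day 3, and 153390, 138440 and 115160 on day 1. At an unadjusted p under 0.05, 2 were lower in clamped than in 0 min kidneys and 0 were higher. These were Slc12a1, the salt cotransporter of the thick ascending limb (-0.55 ± 0.13), and Lrp2, megalin of the proximal tubule (-0.43 ± 0.14). Slc12a3, the cotransporter of the distal tubule, read 4575, 4262 and 888 at 0, 45 and 60 min on day 3, and 4880, 3836 and 2897 on day 1 (-0.89 ± 0.41). Whether these lower readings bear on the AP-1 readings was not tested.

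Neutrophil and lymphocyte markers were dimmer. Neutrophil markers (3 of 6 on the array tested, 2 higher) summed to 1028, 1560 and 1463 at 0, 45 and 60 min on day 3, and to 961, 1064 and 1396 on day 1, with Cxcr2 below 16 on every array. Lymphocyte markers (3 of 7 tested, 2 lower) summed to 769, 557 and 410 on day 3 and to 579.8, 363 and 376 on day 1, with Cd4 and Cd79a below 16 on every array. Endothelial markers (6 of 6 tested, 1 higher and 1 lower) summed to between 5274 and 6297. Fat markers (4 of 5 on the array tested, 1 higher) summed to between 14835 and 17970. Adrenal cortex markers (2 of 6 tested, 0 at an unadjusted p under 0.05) summed to between 222 and 378. Red blood cell markers (2 of 3 on the array tested, 1 lower) summed to between 210 and 1411, lowest in the 60 min day 3 kidney. The part of these in the AP-1 readings was not tested, nor was that of the beta-actin ratio, whose lowest value fell on the same 60 min day 3 array that was brightest for 6 of the 9 genes.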

How the data were processed

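The authors deposited an intensity (linear) for every probe set of each array. Per the submitters' processing notes they used Affymetrix Expression Console, whose version is not given in the sources used here. The 2% trimmed mean was 500.003 on all 6 arrays, so the authors' values had been scaled. Of 45101 probe sets, 34945 had 1 gene symbol in the platform annotation. Each gene took its probe set with the highest mean intensity. Differences are of log2(intensity + 16), and genes were kept at or above the 40th percentile of mean log2 value (6.01). limma 3.58.1 in R 4.3.3 fitted clamp time plus day, and a fit with a mean for each day of clamped and of 0 min kidneys gave the day contrasts, each over 6 arrays with 2 residual degrees of freedom and Benjamini-Hochberg adjustment at 0.05. The fits were tested on simulated data. The genes, lists and tests were chosen with earlier results of these data known. Named genes were the 9 themselves, up to 4 tested genes per pathway list by the largest absolute clamped minus 0 min difference, and per gene the 3 nearest profiles. Vegfa, Ccnd1 and the marker genes named were chosen after their values were seen. Alternatives changed the pseudocount, filter, scaling, probe set rule, variance model, day term and arrays used. The number of arrays limits the precision, and p-values measure the residual spread of the fits over these arrays, not a spread between replicates. No protein sequences were used here.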

Additional observations from a re-analysis of the deposited data

Results flagged for a closer look

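Fosl1 and Jun moved in opposite directions after 45 min on the 2 days. The 45 minus 0 min difference was 0.87 at day 3 and -0.34 at day 1 for Fosl1, and 0.39 and -0.11 for Jun. These differences between days at 45 min, each resting on 4 single arrays, were not tested. The second Jun probe set gave 0.53 and 0.29, and the second Fosl1 probe set 1.68 and 0.63.

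Fosl1 and Fosl2 were lower at day 3 than at day 1 in the 0 min kidneys and higher at day 3 in clamped kidneys. For Fosl1 the day 3 minus day 1 difference was -0.67 at 0 min, 0.53 at 45 min and 0.55 at 60 min. For Fosl2 it was -0.25, 0.54 and 0.65. The clamp effect of day 3 less that of day 1, 1.21 ± 1.36 for Fosl1 and 0.84 ± 0.73 for Fosl2 (± SE), did not pass limma's test (adjusted p = 1 for both).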

How the results depend on the processing

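In all alternatives to clamped minus 0 min in which they were tested, the 8 genes stayed higher in clamped kidneys, from 0.36 (Jund) to 2.48 (Maff). The count of genes called in this contrast, 0 as reported, was 75 with a robust variance trend, 1 with median centring, 1 without the day term, and 0 to 200 when single arrays were left out (200 without the 45 min day 3 array, where Atf3 had a limma adjusted p = 0.0533, within its range of 0.0326 to 0.546). It was 0 in every alternative run for the other 3 contrasts. For 60 minus 45 min only Maff turned, from -0.26 without the 45 min day 1 array up to 1.46 without that of day 3. Without the 45 min day 1 array the day 3 minus day 1 difference of clamped kidneys turned to -0.30 for Fosl1 and -0.22 for Maff, and the change of the clamp effect to -0.19 for Jun and -0.10 for Atf3. Without the 60 min day 3 array these were -0.31 for Fosl1 (day difference) and -0.004 for Fos, -0.10 for Jun and -0.12 for Atf3 (change of effect). Without the 60 min day 1 array the change of effect was 0.016 for Jund. For these genes that turned, the value farthest the other way on leaving out an array was 1.39 (Fosl1) and 0.92 (Maff) for the day difference, and 0.86 (Fos), 1.02 (Jun), 1.17 (Atf3) and -0.60 (Jund) for the change of effect. The causes were not tested. Of the 9 genes, the number at least 2-fold higher at 45 than at 0 min on day 1 was 1 with a pseudocount of 1. At 60 over 45 min it was 3 on day 1 with a pseudocount of 64, and 1 on day 3 when all probe sets of a gene were averaged. With quantile normalization of the arrays, 4 of the 9 genes had all clamped above all 0 min kidneys, and 5 had both 60 min above both 45 min kidneys. With single arrays left out, a choice made after seeing the data, 5 to 8 genes had all clamped above all 0 min kidneys (8 without the 0 min day 1 array), and 7 to 8 had all 60 min above all 45 min kidneys. Fewer arrays make such an order easier to reach for any gene, and the share of all genes in these settings is not given here. Fosl1 could not be tested with the filter at the 60th percentile or with averaged probe sets, and the change of effect could not be fitted without either 0 min array. An array left alone in its group is assumed to vary like the others. No paired analysis was possible because the labels give no replicate numbers, beyond the matching of arrays by day, which the day term of the fit holds.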
